A study of Mus musculus with 12 samples.

Results

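Cytosolic ribosomal protein genes encode the protein part of the ribosome that translates nuclear messages. They were taken from the table of normalized read counts by symbol: Rps or Rpl followed by a number with at most the letter a, x or l, or the symbols Rpsa, Rplp0, Rplp1 and Rplp2. This rule found 50 of the 10187 genes, and it used no measured value. Of the 50, 23 belong to the small subunit, 24 to the large subunit and 3 to the stalk of the large subunit. Rpl22l1, Rpl36al and Rpl7l1 fell outside the rule and were counted with a list of related genes.

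The 12 animals were male C57/BL6 mice, 3 in each of 4 groups, and RNA came from the triceps brachii, which extends the elbow. Wild-type mice were inactive (IW) or active (AW), and myostatin-reduced mice were likewise inactive (IM) or active (AM). Every mouse, controls included, was fed chow containing 0.025% tamoxifen for 6 weeks between 4 and 6 months of age. Tamoxifen activated a Cre recombinase that removed myostatin, an inhibitor of muscle growth, only where the Mstn gene was floxed. The promoter that drove Cre, and whether the wild-type mice carried Cre, are not given in the sources used here. From 6 months of age, active mice lived alone in cages with a running wheel for 12 weeks. How the inactive mice were housed over those weeks is not given in the sources used here, so running and single housing cannot be told apart in the activity comparison. The design asks whether ribosomal protein messages differ with running, with myostatin loss, and with running differently in the 2 genotypes.

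As background, a ribosome is built of a small subunit, which reads the message, and a large subunit, which joins amino acids. Cells make the proteins of both in nearly equal numbers, and many of their messages begin with a terminal oligopyrimidine (TOP) tract, a C followed by a run of C and T bases at the 5′ end. Growth signals through the mTOR kinase raise the translation of such messages, often with little change in their amount. Growth of muscle fibres is often accompanied by a rise in ribosome content. Skeletal and heart muscle also carry RPL3L, a muscle form of the large-subunit protein RPL3.

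The start-site sequences show which of these messages have such a tract at or near their annotated start. Of the 50 genes, 38 had an entry in RefSeq's start-site table (GRCm38.p6), with 48 start sites, and each printed window was placed by exact match on NCBIM37, which is mm9, the build used for counting. A tract was called where a C followed by at least 4 bases of C or T, on the sense strand, stood within 5 bases of a start site. It was found in 20 of the 38 genes (52.6%), against 23.8% of the 7374 genes of the table with a start site and 21.2% of the 27025 genes in the RefSeq table. A C at the start site itself, followed by at least 4 bases of C or T, was found in 23.7% of the 38, against 3.02% and 3.01%. This share includes longer tracts that begin upstream of the start site, as in Rps18 and Rps21. A match is a description of the letters, and its absence says only that they are not in the window. The windows below are those of the genes that the comparisons turn on, with 20 bases before the start site and 10 from it, and capitals mark the tract.
Rps2, chr17:24856988-24857017, plus strand: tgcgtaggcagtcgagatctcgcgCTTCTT
Rpl13a, chr7:52384106-52384135, minus strand: gataagaaaccctgcgacaagaCCTCCTCC
Rps9, chr7:3655623-3655652, plus strand: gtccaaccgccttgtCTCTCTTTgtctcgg
Rps18, chr17:34092601-34092630, minus strand: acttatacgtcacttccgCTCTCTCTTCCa
Rps21, chr2:179992064-179992093, plus strand: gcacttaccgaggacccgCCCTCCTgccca
Rplp0, chr5:116009456-116009485, plus strand: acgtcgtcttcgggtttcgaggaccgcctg
Rpl3l, chr17:24864751-24864780, plus strand: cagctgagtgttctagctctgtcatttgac
The first 5 held a tract, and Rplp0 and Rpl3l held none within 5 bases of the start.

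The values are normalized read counts per gene, scaled by the authors between mice and not divided by gene length. Depth, estimated from the smallest step between values, was 9023578 to 12184073 reads per mouse, so a value of 10 stood for 94.9 to 129.8 reads, a counting error of 8.78% to 10.3%. The targeted gene Mstn was 79.7 to 138 in the wild-type mice and 8.70 to 21.6 in the myostatin-reduced mice, every myostatin-reduced mouse being below every wild-type mouse. All 10 skeletal muscle markers were in the table, with summed values of 171195 to 250143 per mouse. The 11 slow-fibre markers summed to 94.3 to 1370 in IW, 78.3 to 112 in IM, 151 to 1831 in AW and 117 to 1343 in the AM mice, so fibre makeup varied among mice of 1 group. The 7 endothelial markers summed to 310 to 389, 271 to 283, 313 to 510 and 344 to 564 in the same order, and Pecam1, Cdh5 and the others were all present. Leukocyte markers (7 of 10 in the table) summed to 99.7 to 142 over all mice, fibroblast markers (8 of 8) to 491 to 761 and adipocyte markers (5 of 6) to 105 to 230. Of the erythroid markers only Alas2 was in the table, at 2.11 to 7.19, and of the satellite-cell markers 2 of 4, at 24.3 to 35.4. In whole muscle, fewer cells of a type and less RNA per cell cannot be told apart.

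The 50 genes together held under 1% of the summed values of the non-mitochondrial genes in every mouse. Their share was 0.410%, 0.403% and 0.420% in the IW mice and 0.451%, 0.441% and 0.472% in the AW mice. In the myostatin-reduced mice it was 0.379%, 0.375% and 0.362% when inactive (IM) and 0.400%, 0.418% and 0.422% when active (AM). The share was thus highest in AW and lowest in IM, each without overlap with any other group, while IW and AM overlapped. Group means were 0.411% ± 0.00890 for IW, 0.455% ± 0.0158 for AW, 0.372% ± 0.00884 for IM and 0.413% ± 0.0115 for AM (SD, n = 3). No test was made of a sum over chosen genes.

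Part of this order lay in the denominator. The 10 genes with the highest values, among them the muscle genes Myh4, Acta1 and Ckm, took 23.0% to 26.2% of a mouse's values in AW and 29.8% to 30.6% in IM. With those 10 genes left out of the denominator the mean shares were 0.565% for IW, 0.599% for AW, 0.533% for IM and 0.556% for AM. The plain sum of the 50 values was 4140 ± 117 for IW, 4300 ± 169 for AW, 3959 ± 69.6 for IM and 4037 ± 236 for AM (SD, n = 3). On the plain sum AW still lay wholly above IM, but IW (4016 to 4248) overlapped both AW (4109 to 4431) and IM (3900 to 4036), and AM overlapped each of the other groups. With the 10 genes left out, AW (0.573% to 0.613%) likewise overlapped IW (0.550% to 0.582%). AM (0.537% to 0.583%) again overlapped each of the other groups, IM (0.522% to 0.543%) included.

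**Figure D1:**
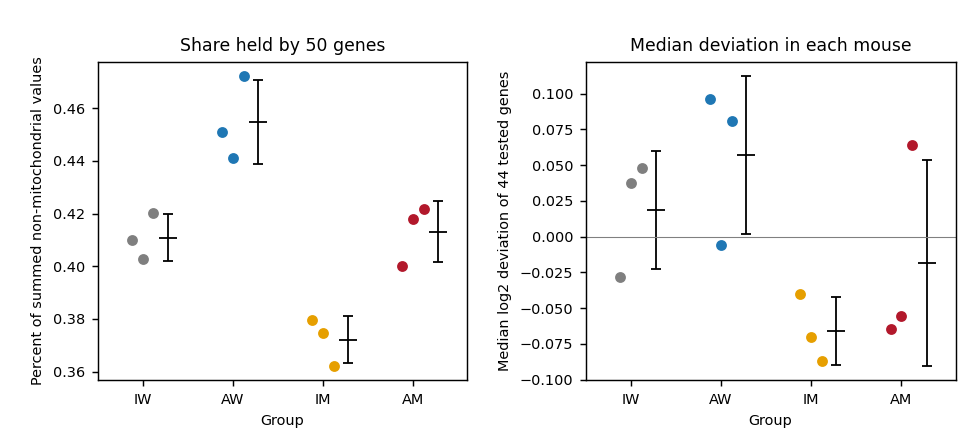
The left panel plots the percent of summed non-mitochondrial values held by the 50 genes and the right panel the median log2 deviation of the 44 tested genes from their own means, with 1 point per mouse and the group mean and SD (n = 3) beside it. AW mice lie at 0.441% to 0.472% and IM mice at 0.362% to 0.379% on the left, and the vertical axes do not start at 0.

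Gene by gene, the groups overlapped more. For the 44 genes with a mean of at least 10, each value was set against the gene's own mean over the 12 mice on the log2(value + 1) scale. Of these 44 genes, 15, 10 and 8 were above their own mean in the IM mice, and 40, 20 and 37 in the AW mice. In IW mice the numbers were 17, 29 and 33, and in AM mice 11, 14 and 33. IM had the lowest counts and AW the highest, but AW overlapped IW, and AM overlapped each of the other groups. Mice of 1 group differed: IW 1, AW 2 and AM 3 each stood apart from the other mice of their groups. The slow-fibre score, the mean log2 deviation of the 11 slow-fibre markers, was 1.96, -1.96 and 0.086 in IW, -2.23, -1.39 and -1.79 in IM, -1.02, 2.33 and 2.49 in AW and 1.09, 2.06 and -1.63 for the AM mice. Its part in the result was not tested beyond the fit with that score as a covariate, given with the other settings in the closing part.

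**Figure D2:**
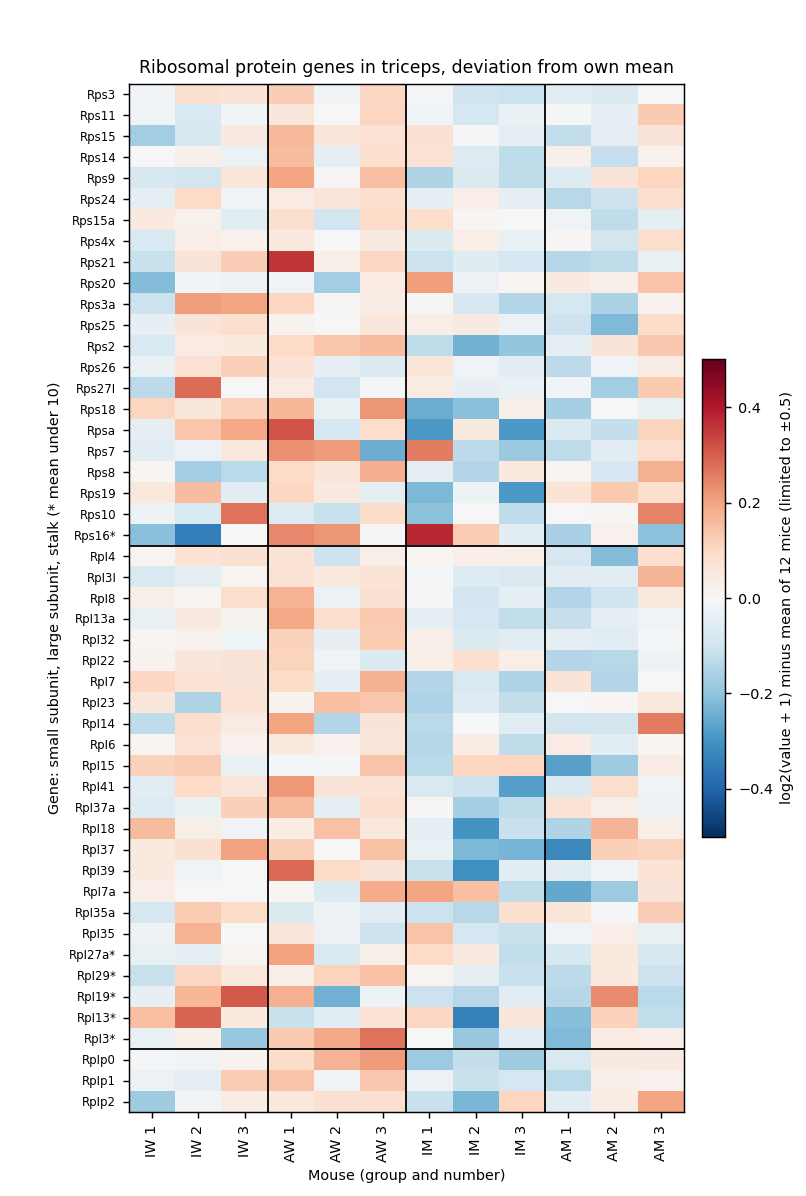
Rows are 49 of the 50 genes by subunit, columns the 12 mice by group, and colour is the log2(value + 1) of a gene minus its mean over 12 mice, limited to ±0.5. Blue prevails in the 3 IM columns, where 8 to 15 of 44 genes lie above their mean, and red in AW 1 and AW 3, where 40 and 37 do.

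Levels differed between genes far more than between mice. Per kilobase of the longest coding transcript, the mean value over 12 mice was 395.4 for Rpl4, 395.1 for Rpl3l, 255.7 for Rpl8 and 227.0 for Rplp1. Across mice Rpl4 ranged from 483 to 595 normalized reads, with overlapping groups, and Rpl8 from 199 to 248, where IM lay below IW. These genes encode large-subunit proteins, RPLP1 being in the stalk. At the other end stood Rpl3 with 1.87, Rpl13 with 6.88 and Rpl18 with 6.93 per kilobase, a ratio of 211.9 between highest and lowest. None of these 3 had a coding window unique to the gene. The longest transcript of Rpl18 has 2987 bases against a coding sequence of 567, so its place depends on that length model. Across mice, by contrast, the highest value of a single gene was 1.14 times the lowest in Rps4x and 1.78 times in Rps16, the ends of the range over the 50.

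These genes have many near-identical copies in the genome, and reads that fit several places may not be assigned to the gene. Coding sequences of 49 of the 50 genes were cut into windows of 65 bases, the read length, and searched in the NCBIM37 genome with up to 2 mismatches (Rpl41 was not matched). The windows matched 911 other loci, 362 of them annotated as pseudogenes. A gene had a median of 11 other loci, the most being 149 for Rpl7a. In 31 genes no window was unique to the gene, and in 18 some were: 100% in Rpl3l and 93.1% in Rpl8, but 9.11% in Rps2 and 0% in Rplp0. The 18 genes had a median of 132.3 normalized reads per kilobase (9.55 to 395.4) and the 31 a median of 18.1 (1.87 to 193.6). Across the 49 genes the percent of unique windows had a Spearman correlation of 0.623 with the value per kilobase and a Pearson correlation of 0.545 with its log2, as a description over genes that share libraries and length models. With the primary transcript as length, which 35 genes had, Spearman's rho was 0.618. How the authors' counting treated reads with several matches is not given in the sources used here. The levels of the 31 genes are therefore uncertain, and the comparisons of groups rest on each gene's own values across mice. How reads of other loci bear on the group differences of these 31 genes, Rplp0 among them, was not tested.

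**Figure D3:**
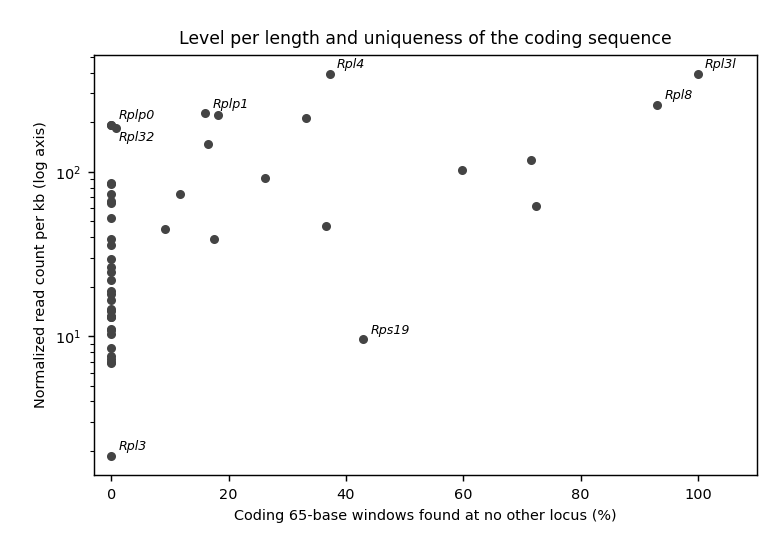
Each point is 1 of 48 genes, with the percent of its 65-base coding windows found at no other locus on the horizontal axis and its mean normalized read count per kilobase on a log vertical axis. The 31 genes at 0% span 1.87 to 193.6, while Rpl8 at 93.1% and Rpl3l at 100% lie at 255.7 and 395.1.

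The pair Rpl3 and Rpl3l shows muscle's own form of a ribosomal protein. Rpl3l (chr17:24864774-24873094, plus strand, 10 exons) had values of 513, 524 and 547 for IW, 569, 560.26 and 568 for AW, 539, 518 and 515 for IM and 521, 519.79 and 609.83 for AM. Rpl3 (chr15:79908211-79913836, minus strand, 10 exons) was between 2.02 and 3.25 in all 12 mice. Rpl3l thus held 99.4% to 99.6% of the pair's summed value in every mouse. The coding sequences are close in length, 1212 bases in Rpl3 and 1224 in Rpl3l, and were identical at 896 of 1212 aligned positions (73.9%). No window of Rpl3 was unique against 100% of Rpl3l, and Rpl3 had 32 other loci, so the ratio of the pair is uncertain on the side of Rpl3. Rpl3l had a log2 change of 0.083 with activity (SE 0.049, limma adjusted p = 0.273) and of -0.028 with genotype (SE 0.049, adjusted p = 0.792), with neither passing the test. In wild-type mice every active value lay above every inactive one, whereas among the myostatin-reduced mice AM 3 alone was above the IM mice.

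The activity comparison asked whether running changed these messages. Of 44 genes tested, 34 had higher and 10 lower values in active mice, against 44.5% higher among all 7247 genes tested. The changes were small: their median was 0.052 on the log2 scale, with a range of -0.095 to 0.18, against a median of -0.022 over all genes. In limma, with Benjamini-Hochberg adjustment over all 7247 genes, 2 of the 44 passed an adjusted p of 0.05, both higher, which is below the background of 14.5% of all genes called in this contrast, or 7.99% called higher. At an unadjusted p under 0.05, 5 were higher and 0 lower, against 14.1% and 16.2% of all genes. By subunit, 17 of 22 small-subunit genes were higher (median 0.044), 14 of 19 large-subunit genes (median 0.047) and 3 of 3 stalk genes (median 0.13).

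Rplp0 and Rps2 rose with activity. Rplp0 encodes the stalk protein that anchors the dimers of RPLP1 and RPLP2, the site where elongation factors bind. Its values were 260.25, 259 and 265 in IW and 279, 295 and 304 in AW, and in the myostatin-reduced mice 231, 241 and 232 in IM and 249, 270.06 and 270.10 in AM. All active mice were above all inactive mice of the same genotype, with a log2 change of 0.16 (SE 0.042, limma adjusted p = 0.0229). The other stalk genes did not pass. Rplp1 had values of 109.72, 109 and 122 for IW, 124, 111 and 123 for AW, 109.94, 104 and 106 for IM and 102, 114 and 114 for AM, a change of 0.058 (SE 0.052, adjusted p = 0.473). Rplp2 had values of 56.8, 63.6 and 65.9 for IW, 66.6, 67.8 and 68.0 for AW, 59.4, 54.7 and 69.3 for IM and 61.8, 65.9 and 73.7 for AM, a change of 0.13 (SE 0.066, adjusted p = 0.212). AW lay above IW in Rplp2, and all other active and inactive groups of the pair overlapped.

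Rps2 encodes a protein of the small subunit near the entry of the message. It had values of 46.3, 50.4 and 50.6 in IW and 52.3, 53.9 and 54.4 in AW. In the myostatin-reduced mice its values were 44.7, 41.4 and 42.6 in IM and 47.4, 51.1 and 53.8 in AM. Again the active and inactive mice of either genotype did not overlap, and the log2 change was 0.18 (SE 0.048, limma adjusted p = 0.0261). Rplp0 and Rps2 were the only genes of the 44 without overlap in both genotypes in the direction of higher values (background 4.84%). The calls were not firm: that of Rplp0 was lost without IW 2, IM 1, IM 3, AW 2, AW 3 or AM 2 (log2 change 0.15 to 0.16, adjusted p = 0.0544 to 0.0705), and that of Rps2 without IW 1, IM 2, IM 3, AW 2, AW 3, AM 2 or AM 3 (0.16 to 0.18, adjusted p = 0.0505 to 0.0699). The call of Rplp0 was also lost with the slow-fibre score as a covariate (0.15, adjusted p = 0.0842), where that of Rps2 stayed (0.21, adjusted p = 0.0471).

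Next in order of p were Rps9, Rpl23 and Rpl39, which did not pass. Rps9, a small-subunit gene, had values of 116, 114 and 128 for IW, 140.44, 123 and 135.86 for AW, 110.16, 116 and 112 for IM and 117, 128 and 132 for AM, a log2 change of 0.16 (SE 0.051, limma adjusted p = 0.0612). Its AM and IM mice did not overlap, while AW 2 lay below IW 3. The large-subunit genes Rpl23 and Rpl39 had log2 changes of 0.12 (SE 0.052, adjusted p = 0.129) and 0.15 (SE 0.067, adjusted p = 0.165). Rpl23 was 39.5, 34.0 and 39.8 for IW, 38.4, 42.2 and 41.9 for AW, 33.9, 36.3 and 34.8 for IM and 37.96, 38.2 and 39.4 for AM. Rpl39 was 15.5, 14.8 and 15.01 for IW, 18.4, 16.1 and 15.7 for AW, 13.8, 11.9 and 14.4 for IM and 14.3, 14.8 and 15.8 for AM. In Rpl23 only the myostatin-reduced groups were separate, and in Rpl39 only the wild-type groups. Lowest of the 44 were Rpl15 at -0.095 (adjusted p = 0.376) and Rpl22 at -0.094 (adjusted p = 0.177), both of the large subunit and neither past the test.

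The genotype comparison asked whether loss of myostatin changed these messages. Here 42 of 44 genes were lower and 2 higher in the myostatin-reduced mice, against 51.7% lower among all genes tested. The median log2 change was -0.072, with a range of -0.21 to 0.14, against -0.0049 over all genes. Only 1 gene, Rplp0, was called, against a background of 5.78% called, or 2.21% called lower, so the share of calls (1 of 44) was near the background. At an unadjusted p under 0.05, 13 of 44 were lower and 1 higher, where 10.9% and 11.6% of all genes were. Lower values were seen in 21 of 22 small-subunit genes (median -0.063), 18 of 19 large-subunit genes (median -0.079) and 3 of 3 stalk genes (median -0.10). Of the 18 genes with some unique coding windows, 18 were lower (median -0.083) and none was called, and with activity 15 of the 18 were higher (median 0.062, 1 called).

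Rplp0 fell by 0.16 on the log2 scale in myostatin-reduced mice (SE 0.042, limma adjusted p = 0.0478). From the values above, every IM mouse was below every IW mouse, and every AM mouse below every AW mouse. Leaving out any 1 of the mice other than AW 1 or AM 2 lost the call (log2 change -0.17 to -0.14, adjusted p = 0.0695 to 0.13, for the lost calls). With an unchanged log2 change the call was also lost with the replicate number as a block (adjusted p = 0.0549), without the filter (0.0552) and without the trend in the variance prior (0.0727). It was lost too with quantile normalization (-0.15 on the log2 scale, adjusted p = 0.0755) and with the slow-fibre covariate (-0.14, adjusted p = 0.0804). Rpl13a, of the large subunit and known also as a regulator of translation in inflammation, just missed the threshold at -0.15 (SE 0.041, adjusted p = 0.0571). Its values were 148, 157 and 154 in IW and 147, 143 and 139 in IM, and among active mice 174, 161 and 166 in AW and 140.00, 147 and 149.94 in AM. The genotypes did not overlap at either activity level, though IW 1 and IM 1 differed by little. Rplp0 and Rpl13a were the only 2 of the 44 with that separation (background 2.55% lower).

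**Figure D4:**
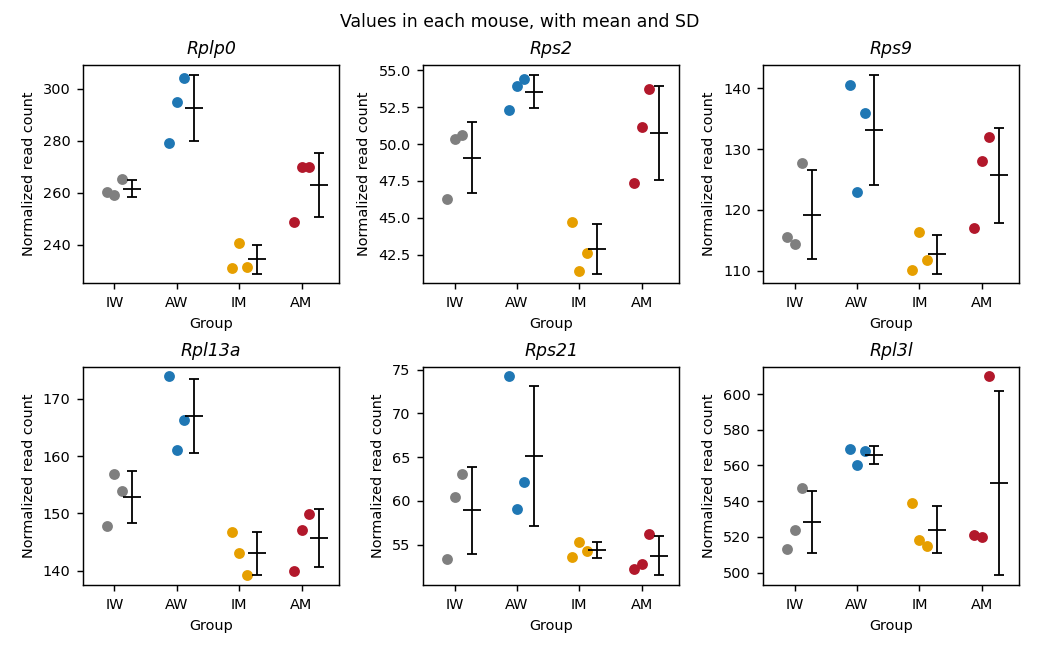
Normalized read counts of 6 genes, with 1 point per mouse and the group mean and SD (n = 3) beside it. Rplp0 and Rps2 are higher in active than inactive mice within each genotype, Rplp0 and Rpl13a are lower in myostatin-reduced mice within each activity level, and the vertical axes do not start at 0.

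Rps18, Rps21 and Rpl7 followed and did not pass. Rps18, in the head of the small subunit, had values of 19.1, 18.5 and 19.3 for IW, 19.99, 17.2 and 20.8 for AW, 14.8, 15.2 and 18.1 for IM and 15.7, 17.7 and 17.2 for AM. The genotype change was -0.21 on the log2 scale (SE 0.069, limma adjusted p = 0.0975), with IM below IW and an overlap of AM with AW 2. Rps21 had values of 53.4, 60.40 and 63.0 for IW, 74.2, 59.0 and 62.1 for AW, 53.5, 55.3 and 54.3 for IM and 52.1, 52.8 and 56.2 for AM. Its change was -0.19 (SE 0.062, adjusted p = 0.0975), AW 1 being the highest mouse. Rpl7, of the large subunit, had values of 91.8, 89.7 and 89.5 for IW, 91.0, 82.7 and 96.7 for AW, 77.1, 80.9 and 76.6 for IM and 89.5, 76.95 and 85.4 for AM, a change of -0.15 (SE 0.052, adjusted p = 0.106). In Rpl7 the inactive groups were separate and the active ones overlapped.

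The exceptions to the lower values were Rps20 and Rpl35a. Rps20, a small-subunit gene, was at 0.14 (SE 0.061, limma adjusted p = 0.215), with group means of 49.4 ± 3.88 for IW, 55.0 ± 5.03 for IM, 50.7 ± 3.90 for AW and 55.1 ± 2.49 for AM (SD, n = 3). The genotypes overlapped at both activity levels, IW 2 (51.93) lying above IM 2 (51.38) and AW 3 (53.97) above AM 2 (53.38). Rpl35a was at 0.0048 (adjusted p = 0.979). Rpsa, the laminin receptor that is also a small-subunit protein, had a change of -0.20 (SE 0.092, adjusted p = 0.213), with values of 13.03, 14.9 and 15.55 for IW, 17.0, 12.7 and 14.4 for AW, 10.9, 13.9 and 10.8 for IM and 12.8, 12.3 and 14.6 for AM. Rps27l, a relative of Rps27 regulated by p53, was at -0.029 (SE 0.074, adjusted p = 0.86) with genotype and at -0.039 (adjusted p = 0.755) with activity, its value in IW 2 being 43.0 against 31.1 to 38.8 in the other 11 mice. Without IW 2 both values were above 0, at 0.029 and 0.019.

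**Figure D5:**
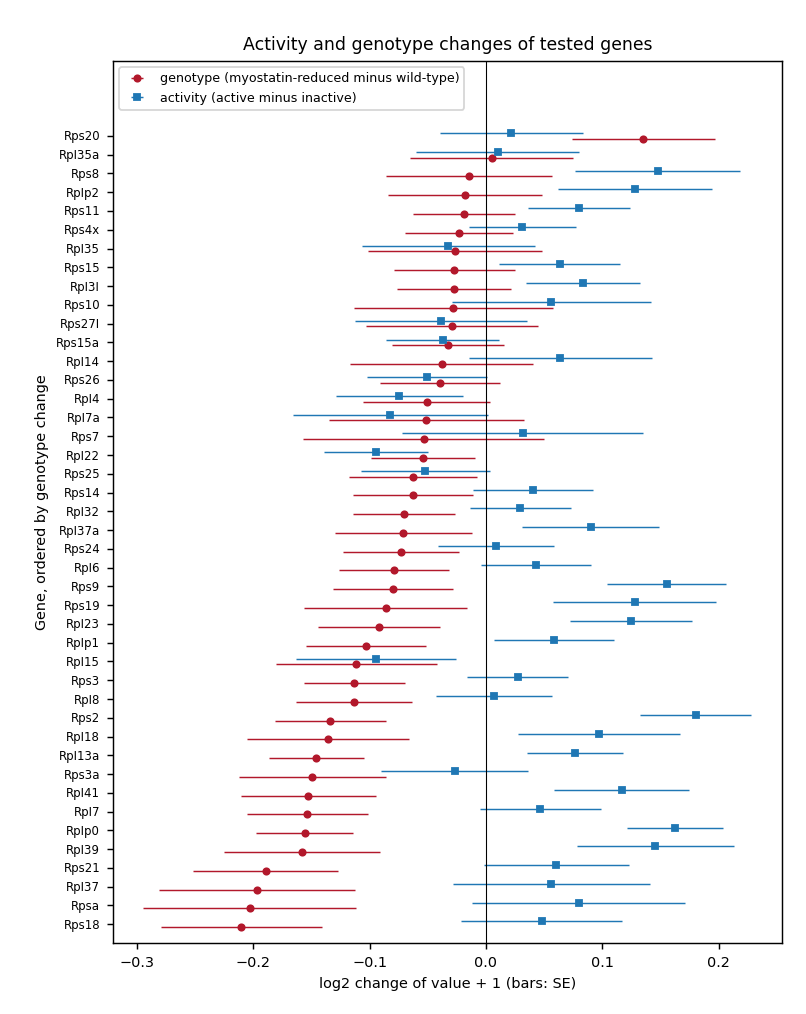
For 43 of the 44 tested genes, ordered by genotype change, the log2 change with activity (squares) and with genotype (circles) is plotted with its SE. Circles lie below 0 in 41 of the 43 genes shown, while squares lie above 0 in 33.

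Within single levels of the other factor no gene of the 44 was called in the main fit. For activity in myostatin-reduced mice, other settings called up to 1 gene and fits without 1 mouse up to 2. With activity, 31 of 44 were higher in wild-type mice (median 0.038, background 47.1% higher and 0.0276% called) and 29 of 44 in myostatin-reduced mice (median 0.057, background 45.4% higher and 7.84% called), where Rps2 had the smallest adjusted p, 0.0507 in limma. At an unadjusted p under 0.05, 3 genes were higher in wild-type mice, and 3 higher and 1 lower in myostatin-reduced mice, against 7.58%, 12.4% and 13.7% of all genes in the same directions. With genotype, 38 of 44 were lower in inactive mice (median -0.084, background 49.6% lower and 2.51% called) and 38 of 44 in active mice (median -0.096, background 52.8% lower and 0.207% called). At an unadjusted p under 0.05, 7 and 3 genes were lower, against 8.76% and 5.26% of all genes. These pairs of contrasts share groups and are given side by side.

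Values that did not overlap within 1 level were as follows. In wild-type mice, 9 of 44 genes (20.5%, background 9.09%) were higher in every active mouse than in every inactive one, among them Rplp0, Rps2, Rpl13a and Rpl3l, and 0 were lower (background 8.38%). In myostatin-reduced mice 7 were higher (15.9%, background 14.5%) and 2, Rpl22 and Rps15a, lower (4.55%, background 15.2%). Among inactive mice, IM lay wholly below IW in 10 genes (22.7%, background 12.7%), among them Rplp0, Rpl13a, Rps2, Rps18 and Rpl8. Among active mice, AM lay below AW in 3 genes, Rps21, Rplp0 and Rpl13a (6.82%, background 7.47%), and above it in Rpl35a (2.27%, background 7.73%). The shares among ribosomal protein genes thus exceeded the background for activity in wild-type mice and for genotype in inactive mice, and were near it or under it elsewhere.

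The interaction asked whether the response to running depended on genotype. None of the 44 was called in limma, and none reached an unadjusted p under 0.05, where 4.1% of all genes did. Over all 7247 genes 0 were called too. The median interaction was 0.0031 on the log2 scale, against -0.0054 for all genes. The smallest p belonged to Rps19, needed for maturation of the small subunit, at 0.29 (SE 0.14, adjusted p = 0.89). Its values were 12.7, 13.7 and 11.7 for IW, 13.2, 12.6 and 11.8 for AW, 10.3, 11.97 and 9.81 for IM and 12.8, 13.4 and 12.99 for AM. IM 1 and IM 3 were the lowest of the 12, and the AM mice lay wholly above the IM mice. Rps10 at 0.28, Rps15 at -0.21, Rpl35a at 0.21 and Rpl7a at -0.23 had the same adjusted p of 0.89. Rps15, at the decoding side of the small subunit, had values of 112, 119.74 and 130.89 for IW, 142, 132 and 133 for AW, 134, 126 and 123 for IM and 116, 123 and 133 for AM. In it the wild-type groups did not overlap and the myostatin-reduced groups did. Rps10, Rpl35a and Rpl7a were between 9.76 and 13.98 in every mouse, where counting error is near its highest among the tested genes. Missing the threshold does not show that the responses were alike, since the SE of an interaction was 0.082 for Rpl13a and 0.17 for Rpl7a.

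Related gene lists were described by the same counts, with no test of a list. Of 7 other ribosomal or ribosome-associated genes, 4 were tested and none was called in either comparison. Gnb2l1, the ribosome-bound scaffold RACK1, was at -0.12 with genotype (SE 0.041, limma adjusted p = 0.0975) and 0.008 with activity (adjusted p = 0.916). Rpl36al was at -0.13 with activity (adjusted p = 0.191) and -0.0055 with genotype (adjusted p = 0.972), Rpl22l1 at -0.065 with activity (adjusted p = 0.587) and Rpl7l1 at -0.0038 with genotype (adjusted p = 0.98). Of 16 other messages known to bear a TOP tract, 6 were higher and 10 lower with activity (median -0.025), where 55.5% of all genes tested were lower, and 1 was called in each direction, where 7.99% of all genes were called higher and 6.51% lower. The elongation factor gene Eef1b2 rose by 0.16 (SE 0.041, adjusted p = 0.025), and the initiation factor gene Eif4b fell by 0.22 (SE 0.057, adjusted p = 0.0233). Eef1a1, for the main elongation factor, was at 0.17 and did not pass (SE 0.081, adjusted p = 0.177). With genotype 10 of 16 were lower (median -0.019), where 51.7% of all genes were, and 1 was called, where 3.57% of all genes were called higher: Pabpc1, the poly(A)-binding protein, rose by 0.36 (SE 0.058, adjusted p = 0.00535). The initiation factor gene Eif4a2 at -0.12 (SE 0.041, adjusted p = 0.1) and Naca, of the nascent polypeptide-associated complex, at 0.61 (SE 0.21, adjusted p = 0.115) did not pass.

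Ribosome biogenesis genes make and process ribosomal RNA and assemble subunits. Of 67 tested, 45 were lower with activity (median -0.038), where 55.5% of all genes were lower, and 2 were called, both lower, where 14.5% of all genes were called and 6.51% called lower. Rrp12, for export of subunits, fell by 0.26 (SE 0.060, limma adjusted p = 0.0132) and Tcof1, for transcription of ribosomal RNA genes, fell by 0.23 (SE 0.068, adjusted p = 0.0386), while the nucleolar phosphoprotein gene Nolc1 was at -0.19 and did not pass (SE 0.061, adjusted p = 0.0587). With genotype 35 of 67 were higher (median 0.0085) and 4 were called, all higher, where 48.3% of all genes were higher and 3.57% called higher. Among them Rrp12 rose by 0.41 (SE 0.060, adjusted p = 0.00287), Mybbp1a, a nucleolar protein, by 0.34 (SE 0.055, adjusted p = 0.0063), and Polr1b, a subunit of RNA polymerase I, by 0.21 (SE 0.051, adjusted p = 0.0317).

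Of 20 tested genes of growth signalling to ribosomes, 16 were lower with activity (median -0.12), where 55.5% of all genes were lower. Of the 20, 3 were called, all lower, where 14.5% of all genes were called and 6.51% called lower. Tsc1, an inhibitor of mTOR signalling, fell by 0.24 (SE 0.046, limma adjusted p = 0.00518), the S6 kinase gene Rps6kb1 by 0.26 (SE 0.065, adjusted p = 0.0198), and Eif4ebp2, a repressor of cap-dependent translation, by 0.25 (SE 0.074, adjusted p = 0.0442). With genotype 15 of 20 were higher (median 0.053), where 48.3% of all genes were. Of the 20, 2 were called, both higher, where 5.78% of all genes were called and 3.57% called higher. Eif4ebp2 rose by 0.31 (SE 0.074, adjusted p = 0.0332) and Tsc2, the partner of Tsc1, by 0.23 (SE 0.059, adjusted p = 0.0434), while Mxi1, of the MYC network, was at -0.16 and did not pass (SE 0.055, adjusted p = 0.115). Inhibitors and activators of the pathway are both among these genes.

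Markers of other cell types were counted in the same way. Over all genes tested, 44.5% were higher and 55.5% lower with activity, with 7.99% called higher and 6.51% called lower. With genotype 48.3% of all genes were higher and 51.7% lower, with 3.57% called higher and 2.21% called lower. Of the 7 endothelial markers, 7 were higher with activity (median 0.49, 5 called) and 7 lower with genotype (median -0.11, none called). Of the 11 slow-fibre markers, 11 were higher with activity (median 1.80, Casq2 called) and 11 lower with genotype (median -1.30, none called). These are the directions of most ribosomal protein genes. Fibroblast markers (6 of 7 lower with activity, 4 of 7 lower with genotype, none called) and leukocyte markers (2 of 3 lower with activity, 3 of 3 higher with genotype, none called) did not have them in both comparisons. Both tested adipocyte markers were higher with activity (Fabp4 called) and lower with genotype (none called), the 1 tested satellite-cell marker, Cdh15, was at -0.15 in both, and no erythroid marker was tested. Of the 10 skeletal muscle markers 9 were lower with activity (1 called lower and 1 higher) and 8 higher with genotype (none called). The part of these cell types in the ribosomal protein values was not tested, other than by the slow-fibre covariate.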

How the data were processed

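The authors sequenced polyadenylated RNA of 12 triceps muscles as single-end reads of 65 bases, mapped them with CASAVA (version not given) to mm9 and summed the reads in RefSeq exons for each gene. The deposited signal is a normalized read count, scaled by the authors so that means without the highest and lowest 5% were equal in all samples. Mitochondrial messages were counted apart. Groups and replicate numbers came from the sample titles.

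Members and gene lists were chosen with earlier results of these data known. Values were whole multiples of the smallest step (within 0.005 of the value) in 88.6% to 91.2% of values under 5 but in 67.3% to 69.8% of those between 20 and 50 (chance 9.68% to 13.2%), so no test of read counts was made. The floor of 3 reads was 0.231 to 0.316. Genes with a mean of at least 10, 7247 in all and 44 of the 50 members, were tested on log2(value + 1), which understates changes of low genes, with limma 3.58.1 in R 4.3.3 (a mean per group, all 12 mice, eBayes with a trend). Two-sided p-values were adjusted by Benjamini-Hochberg over the 7247 genes, and measure the spread between mice. The members not tested were Rpl13, Rpl19, Rpl27a, Rpl29, Rpl3 and Rps16. The fit was tested on simulated data. Named were paralogs, stalk genes, Rpsa, the 5 members with the smallest p per comparison, the highest and the 3 lowest per length, and, for activity and genotype, the 3 smallest p in each list of related genes. Lists of cell type markers are given mainly as counts, though the rule named their 3 smallest p too. Rpl15, Rpl22, Rps20, Rps4x and Rps15a were named after their values were seen. Lengths and positions came from GENCODE vM1 on NCBIM37, and windows were searched with BLAST+ 2.17.0. The values of 1 member, which enters all counts, and of 1 gene of the related lists are not reported here. For Rpl13a the longest model has 13 exons, so its length and uniqueness are uncertain. Whether strand was used in counting is not given in the sources used here.

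Alternatives were other normalizations, pseudocounts, filters and variance settings, sample weights, a slow-fibre covariate, a replicate block, each mouse left out, and other denominators. Same-numbered IM and AM mice deviated together (correlations 0.236, 0.171 and 0.322), which other group pairs did not show for every number. The titles do not say that equal numbers pair mice, so the main fit had no block. The block was fitted only as an alternative.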

Additional observations from a re-analysis of the deposited data

How the results depend on the processing

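The median changes of the 44 genes kept their direction in every setting for activity (0.041 to 0.081) and genotype (-0.10 to -0.063), and in the fits without 1 mouse (0.032 to 0.077 and -0.097 to -0.062). Counts of called genes were less stable. With activity the count of 2 became 1 with the slow-fibre score as covariate and 1 among genes with some unique coding windows (a choice made after seeing the data), 3 with quantile normalization and 3 with sample weights, and was 0 to 3 without 1 mouse, being 0 without IM 3, AW 2, AW 3 or AM 2. With genotype the count of 1 became 2 with median-of-ratios size factors, 2 with a mean of at least 50, 3 with the slow-fibre covariate, and 0 with no filter, with no trend in the variance prior and among genes with some unique coding windows, and was 0 to 1 without 1 mouse. For activity in myostatin-reduced mice the count of 0 became 1 with median-of-ratios size factors, 1 with quantile normalization and 1 with sample weights, and was 0 to 2 without 1 mouse (1 without AW 1, 2 without AM 1). No member was called in the other comparisons in any setting. The counts over all genes moved as well: with activity from 1051 to 401 with the covariate, 1003 with quantile normalization, 1740 with sample weights and 552 to 1488 without 1 mouse, and with genotype from 419 to 309 with the covariate, 433 with median-of-ratios size factors, 272 with a mean of at least 50, 430 with no filter, 375 with no trend, 364 with the block and 182 to 573 without 1 mouse. In myostatin-reduced mice the activity count over all genes went from 568 to 583 with median-of-ratios size factors, 543 with quantile normalization, 931 with sample weights and 86 to 1098 without 1 mouse. The cause of these differences was not tested.

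With the replicate number as a block, 2 members were called with activity and 0 with genotype, where Rplp0 had an adjusted p of 0.0549 in limma. For activity in myostatin-reduced mice the block gave 0 calls as before, and it changed no other call.

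The covariate is measured on the same muscles and moved with the groups. With it Rplp0 was not called with activity (log2 change 0.15, adjusted p = 0.0842) or genotype (-0.14, adjusted p = 0.0804), though its changes stayed near those without it (0.16 and -0.16) and between 0.15 and 0.18 and between -0.16 and -0.14 in all settings other than those without 1 mouse, while Rpl13a (adjusted p = 0.0302) and Rps21 (log2 change -0.25, adjusted p = 0.0193) were called with genotype. Rpl13a was also called with median-of-ratios size factors (adjusted p = 0.0464), quantile normalization (0.0272) and a mean of at least 50 (0.0341).

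Directions turned in genes close to no change. Rps27l with activity was at 0.085 with the slow-fibre covariate, 0.019 without IW 2 and 0.00057 without AM 2, and with genotype at 0.029 and 0.010 without the same mice (ranges without 1 mouse -0.084 to 0.019 and -0.074 to 0.029). Rplp2 with genotype was at 0.0042 without IW 3, 0.020 without IM 2 and 0.011 without AM 1 (range -0.064 to 0.020). Of 538 alternative values of named genes, 491 kept direction and side of the threshold, 29 lost it, 10 passed it and 8 turned.

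Without the 10 highest genes in the denominator the shares were 0.565% (IW), 0.533% (IM), 0.599% (AW) and 0.556% (AM). With those genes kept in the denominator and 1 mouse left out, the shares were 0.406% to 0.415%, 0.368% to 0.377%, 0.446% to 0.462% and 0.409% to 0.420% in the same order. Groups of 3 mice and counting error near 10% at a value of 10 limit what could be detected for the lower genes.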
